A study of Mus musculus with 8 samples.

Results

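The genes described here were 9 regulators of endoderm: the SOX factors Sox17 and Sox7, the GATA factors Gata4 and Gata6, the forkhead factors Foxa1 and Foxa2, the nuclear receptor Hnf4a, the homeobox factor Hhex, and Cer1. They were picked out by gene symbol alone, from a list drawn up with earlier results of these data known, and all 9 were found among the 36808 genes of the RNA-seq table. Cer1 differs in kind from the others, since it encodes a secreted antagonist of Nodal, BMP and Wnt ligands and not a transcription factor.

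Expression was measured in mouse embryonic stem cells (ESCs) and in cells collected at day 5 of directed differentiation to spinal motor neurons (SMNs), for which LIF was withdrawn and retinoic acid and an agonist of Sonic hedgehog signalling were given. The study asked how lineage genes are expressed when Polycomb Repressive Complex 2 (PRC2), the enzyme complex that places H3K27me3, is lost in part or nearly completely. Values from 8 libraries were used, with 1 library per condition: E14 wild-type, CJ7 wild-type, Suz12delta and Eednull ESCs, and E14 wild-type, Suz12GT, Suz12delta and Eednull cells at day 5. A library of Suz12GT ESCs was not analysed here. Suz12GT cells carry a gene trap that fuses SUZ12 to β-galactosidase and keep part of their H3K27me3, whereas the Suz12delta line has a truncated SUZ12 and the Eednull line a point mutation in Eed, and the study describes near complete loss of the mark in both. E14 and Suz12GT cells are on a 129/Ola background, Suz12delta on C57/BL6, Eednull on BALB/cR1 and CJ7 on 129/S, so that background and genotype cannot be told apart in comparisons of Suz12delta or Eednull cells with E14. Every line was kept on irradiated mouse embryonic fibroblasts as ESCs, and these feeder cells were depleted by brief plating before collection. The CJ7 library is labelled as made and sequenced together with a library that, by its column name, was that of Eednull ESCs, and no batch is labelled for the other libraries.

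The endoderm is the germ layer of the gut and its organs, and mouse embryos also form an extraembryonic endoderm that lines the yolk sac. GATA6 and GATA4 act early in extraembryonic endoderm, with SOX7 and SOX17 among the factors that follow, and FOXA2, FOXA1, HHEX and HNF4A act in definitive and visceral endoderm. Several of these genes also have roles elsewhere: Foxa2 and Foxa1 are expressed in the floor plate of the neural tube, Gata4 and Gata6 in the heart, and Sox17, Sox7 and Hhex in endothelium. In ESCs such developmental genes are typical PRC2 targets, and PRC2 is known to occupy CpG-rich promoters.

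Values are FPKM, fragment numbers scaled for transcript length and sequencing depth, as the authors deposited them, so levels of different genes are compared per length. Ratios are log2 ratios of FPKM plus a pseudocount of 0.1, which understates the difference of genes with low values, and a gene was compared where it reached 0.1 FPKM in at least 1 of the libraries set side by side. A gene was counted as higher or lower where this ratio was at least 2-fold. Since each condition had 1 library, no difference has a replicate check, no error can be given, and the order of neighbouring values is not known beyond these libraries. A value of exactly 0 can be a failed estimate, since up to 5 genes of a library had a 0 where all other libraries gave them at least 10 FPKM. The number was 5 in E14 and in CJ7 ESCs, and 0 in Suz12delta ESCs and in E14 cells at day 5. A count of 0 does not show that the zeros of a library are true. Read depth is unknown.

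The mutated genes were read as a check of the libraries. Suz12 was at 41.3 FPKM in E14, 53.1 FPKM in CJ7, 6.21 FPKM in Suz12delta and 35.7 FPKM in Eednull ESCs. At day 5 it was at 16.2 FPKM in E14, 10.3 FPKM in Suz12GT, 11.6 FPKM in Suz12delta and 17.6 FPKM in Eednull cells. Eed was between 18.8 and 50.9 FPKM in ESCs and between 11.1 and 15.9 FPKM at day 5. A gene trap, a truncation and a point mutation all leave transcript, so these levels do not identify the alleles. The 7 pluripotency markers were Pou5f1, Nanog, Sox2, Zfp42, Klf4, Esrrb and Dppa5a. They summed to 1043 FPKM in E14, 821 FPKM in CJ7, 376 FPKM in Suz12delta and 702 FPKM in Eednull ESCs. In Suz12delta ESCs 6 were lower than in E14, and in Eednull ESCs 2 (22.8% and 11.9% of all genes), with 0 higher. At day 5 they summed to 21.8 FPKM in E14, 32.4 FPKM in Suz12GT, 18.0 FPKM in Suz12delta and 12.6 FPKM in Eednull cells. Of those compared, 6 of 7, 6 of 7 and 3 of 6 were higher than in E14 in these mutants, and 0, 1 and 1 lower. Sox2, the lower gene, made up most of the sums in E14 and Suz12GT cells, at 20.7 and 22.2 FPKM. It was at 3.70 FPKM in Suz12delta and 5.63 FPKM in Eednull cells. Only 1 of the 7, Sox2, reached 1 FPKM in E14 cells at day 5, so the sums do not give the order of the other markers. The 7 SMN lineage markers (Pax6, Olig2, Neurog2, Mnx1, Isl1, Lhx3 and Chat) summed to 133 FPKM in E14 and 101 FPKM in Suz12GT cells at day 5. In Suz12delta and Eednull cells at day 5 the SMN markers summed to 17.9 and 16.7 FPKM, and Olig2, which marks their progenitors, was at 0.107 and 0.0455 FPKM, against 22.1 FPKM in E14 and 10.5 FPKM in Suz12GT cells.

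Most of the 9 genes were low in both wild-type lines and higher in the PRC2 mutants, with Hhex, Foxa1, Hnf4a and Cer1 as exceptions in some libraries. Added together, they came to 4.02 FPKM in E14, 4.06 FPKM in CJ7, 6.88 FPKM in Suz12delta and 28.3 FPKM in Eednull ESCs. At day 5 the sum was 4.67 in E14, 35.7 in Suz12GT, 44.0 in Suz12delta and 43.5 in Eednull cells. In E14 ESCs 1 of the 9 reached 1 FPKM, which was Hhex, and in E14 cells at day 5 again 1 did, which was Foxa2. In the day 5 mutant libraries the number at 1 FPKM or more was 5 in Suz12GT, 8 in Suz12delta and 7 in Eednull cells. The RNA came from bulk cultures, in which fewer cells of a type and less RNA per cell cannot be told apart.

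**Figure D1:**
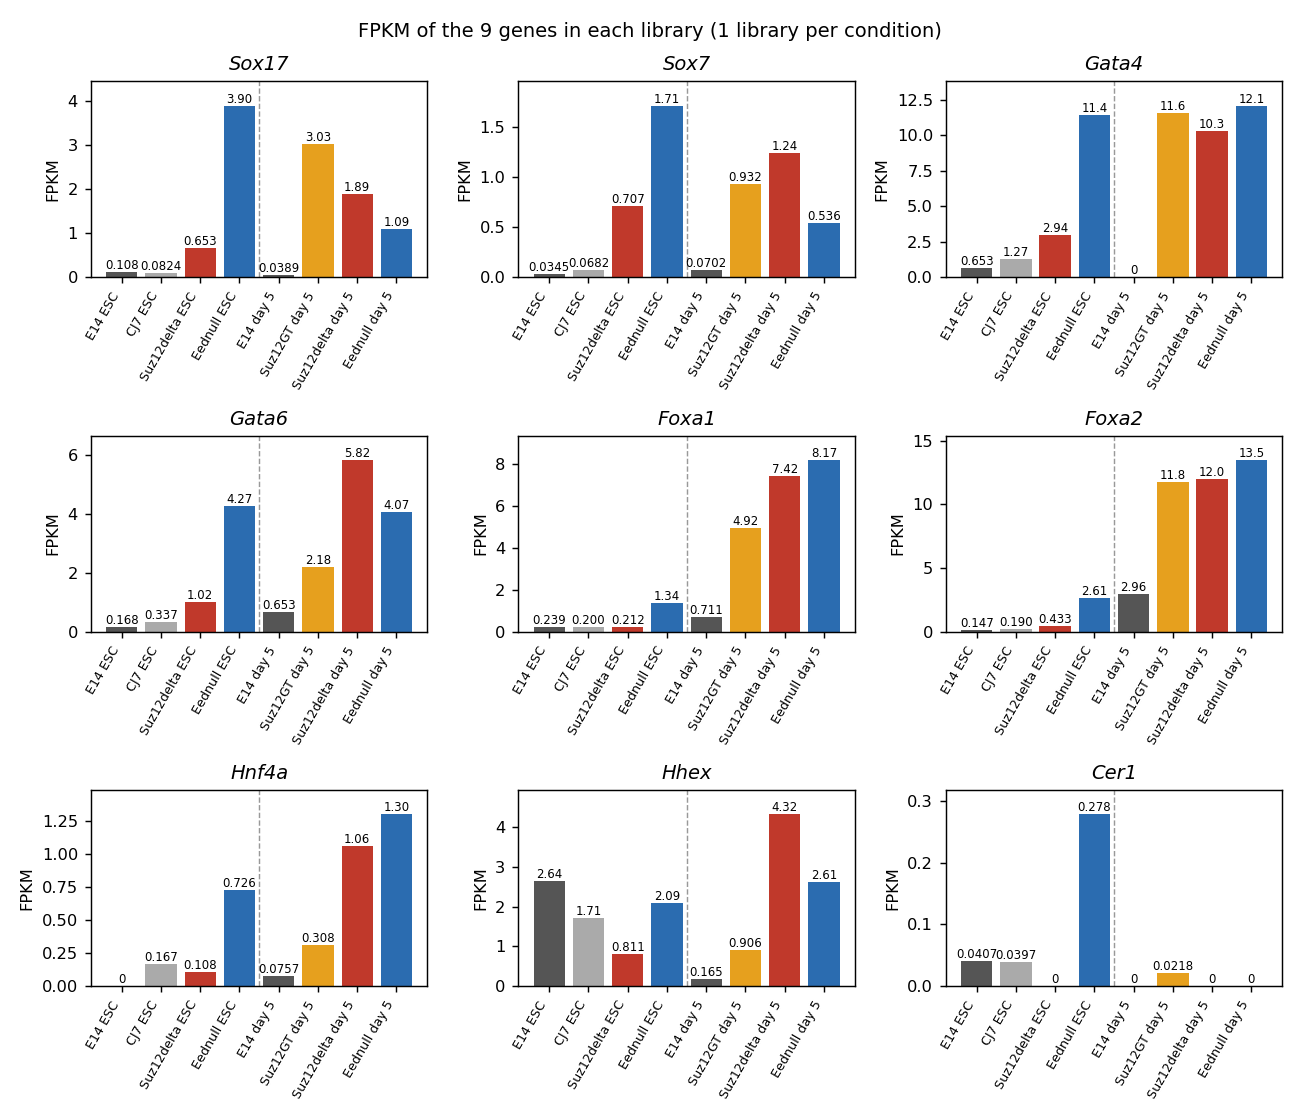
Bars show FPKM (vertical axis, linear and starting at 0, with its own range for each gene) of the 9 genes in each of the 8 libraries (horizontal axis), with no error bars since each condition had 1 library, and the dashed line separates ESCs from day 5. Gata4 was listed at 0 in E14 cells at day 5 and stood between 10.3 and 12.1 FPKM in the 3 mutant libraries of that day.

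Sox17 and Sox7 encode related SOX factors of primitive, visceral and definitive endoderm and of endothelium. Sox17 (ENSMUSG00000025902) lies on the minus strand of chromosome 1 of NCBI build 37, from 4481009 to 4486494. In ESCs its level was 0.108 FPKM in E14, 0.0824 FPKM in CJ7, 0.653 FPKM in Suz12delta and 3.90 FPKM in Eednull cells. By day 5 it was at 0.0389 FPKM in E14, 3.03 FPKM in Suz12GT, 1.89 FPKM in Suz12delta and 1.09 FPKM in Eednull cells. Sox17 was thus at or below 0.108 FPKM in all 3 wild-type libraries, and the order of the mutants was turned round between the stages, with Eednull above Suz12delta in ESCs and below it at day 5. The log2 ratio to E14 of the same day was 1.86 in Suz12delta and 4.27 in Eednull ESCs, and 4.50 in Suz12GT, 3.84 in Suz12delta and 3.10 in Eednull cells at day 5.

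Sox7 (ENSMUSG00000063060) lies on the plus strand of chromosome 14 from 64562511 to 64569569. It was at 0.0345 FPKM in E14, 0.0682 FPKM in CJ7, 0.707 FPKM in Suz12delta and 1.71 FPKM in Eednull ESCs. The day 5 levels were 0.0702 FPKM in E14, 0.932 FPKM in Suz12GT, 1.24 FPKM in Suz12delta and 0.536 FPKM in Eednull cells. As for Sox17, every mutant library was above every wild-type library, and the Eednull level was lower at day 5 than in ESCs. The log2 ratios to E14 were 2.58 in Suz12delta and 3.75 in Eednull ESCs, and 2.60, 2.97 and 1.90 in Suz12GT, Suz12delta and Eednull cells at day 5.

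Gata4 and Gata6 encode zinc-finger factors that drive extraembryonic endoderm and that also act in heart and gut. Gata4 (ENSMUSG00000021944) lies on the minus strand of chromosome 14 from 63817759 to 63890529. Its level in ESCs was 0.653 FPKM in E14, 1.27 FPKM in CJ7, 2.94 FPKM in Suz12delta and 11.4 FPKM in Eednull cells. At day 5 Gata4 was listed at 0 in E14 cells, while the mutants were close together at 11.6 FPKM in Suz12GT, 10.3 FPKM in Suz12delta and 12.1 FPKM in Eednull cells. No ratio is given against the listed 0, and in ESCs the log2 ratio to E14 was 2.01 in Suz12delta and 3.93 in Eednull cells. Against CJ7, the wild-type line with the higher level, these were 1.15 and 3.07.

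Gata6 (ENSMUSG00000005836) lies on the plus strand of chromosome 18, from 11049085 to 11085633 in the table. Its ESC levels were 0.168 FPKM in E14, 0.337 FPKM in CJ7, 1.02 FPKM in Suz12delta and 4.27 FPKM in Eednull cells. At day 5 it was at 0.653 FPKM in E14, 2.18 FPKM in Suz12GT, 5.82 FPKM in Suz12delta and 4.07 FPKM in Eednull cells. In contrast to Gata4, Gata6 was detected in E14 cells at day 5, and its level in Suz12GT cells was below that in both other mutants. The log2 ratio to E14 was 2.07 in Suz12delta and 4.03 in Eednull ESCs, and 1.60, 2.98 and 2.47 in Suz12GT, Suz12delta and Eednull cells at day 5.

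Foxa1 and Foxa2 encode pioneer factors of gut endoderm and its organs, and both are also expressed in ventral neural tube. Foxa1 (ENSMUSG00000035451) lies on the minus strand of chromosome 12 from 58641618 to 58647108. In ESCs it was at 0.239 FPKM in E14, 0.20 FPKM in CJ7, 0.212 FPKM in Suz12delta and 1.34 FPKM in Eednull cells. By day 5 it was at 0.711 FPKM in E14, 4.92 FPKM in Suz12GT, 7.42 FPKM in Suz12delta and 8.17 FPKM in Eednull cells. Suz12delta ESCs were thus at the level of the wild-type lines for Foxa1, with a log2 ratio to E14 of -0.12, which was 0.69 with the libraries brought to equal FPKM sums. The ratio was 2.08 in Eednull ESCs, and 2.63, 3.21 and 3.35 in Suz12GT, Suz12delta and Eednull cells at day 5.

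Foxa2 (ENSMUSG00000037025) lies on the minus strand of chromosome 2, from 147868613 to 147872782 in the table. It was at 0.147 FPKM in E14, 0.190 FPKM in CJ7, 0.433 FPKM in Suz12delta and 2.61 FPKM in Eednull ESCs. The day 5 level was 2.96 FPKM in E14, 11.8 FPKM in Suz12GT, 12.0 FPKM in Suz12delta and 13.5 FPKM in Eednull cells. Foxa2 had the highest level of the 9 genes in each of the 4 day 5 libraries, and the 3 mutants were close together. The log2 ratio to E14 was 1.11 in Suz12delta and 3.46 in Eednull ESCs, and 1.96, 1.98 and 2.16 in Suz12GT, Suz12delta and Eednull cells at day 5.

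Hnf4a encodes a nuclear receptor of visceral endoderm, liver and gut. The gene (ENSMUSG00000017950) lies on the plus strand of chromosome 2, from 163318054 to 163398646 in the table. It was listed at 0 in E14 ESCs and was at 0.167 FPKM in CJ7, 0.108 FPKM in Suz12delta and 0.726 FPKM in Eednull ESCs. At day 5 it was at 0.0757 FPKM in E14, 0.308 FPKM in Suz12GT, 1.06 FPKM in Suz12delta and 1.3 FPKM in Eednull cells. The level in Suz12GT cells was thus above E14 but below both other mutants, with log2 ratios of 1.22, 2.72 and 3.0. Against CJ7 ESCs, Hnf4a had a log2 ratio of -0.36 in Suz12delta and 1.63 in Eednull ESCs.

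Hhex encodes a homeobox factor of anterior endoderm, liver and blood vessel precursors, and it had the highest level of the 9 genes in both wild-type ESC libraries. The gene (ENSMUSG00000024986) lies on the plus strand of chromosome 19, from 37509331 to 37515221 in the table. Its level was 2.64 FPKM in E14, 1.71 FPKM in CJ7, 0.811 FPKM in Suz12delta and 2.09 FPKM in Eednull ESCs. By day 5 it was at 0.165 FPKM in E14, 0.906 FPKM in Suz12GT, 4.32 FPKM in Suz12delta and 2.61 FPKM in Eednull cells. In ESCs the log2 ratio to E14 was -1.59 in Suz12delta cells, or -0.99 against CJ7 and -0.64 with equal FPKM sums, and in Eednull cells it was -0.32 against E14 and 0.28 against CJ7. At day 5 the ratios were 1.92, 4.06 and 3.35 in Suz12GT, Suz12delta and Eednull cells.

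Cer1 (ENSMUSG00000038192) lies on the minus strand of chromosome 4 from 82527655 to 82531052. It was at 0.0407 FPKM in E14, 0.0397 FPKM in CJ7 and 0.278 FPKM in Eednull ESCs, and was listed at 0 in Suz12delta ESCs. At day 5 it was at 0.0218 FPKM in Suz12GT cells and listed at 0 in the other libraries. Cer1 therefore reached the minimum of 0.1 FPKM in Eednull ESCs and in no other library, where its log2 ratio to E14 was 1.43.

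Promoter sequence was held for 5 of the 9 genes in RefSeq windows of the GRCm38.p6 build, a later build than that of the expression table: Foxa1, Foxa2, Hnf4a, Hhex and Cer1. The 250 bases before the start, or before the first of the starts where there were 3 for Foxa2 and 2 for Hnf4a, are shown 5′ to 3′ on the strand of the gene, since these genes shared higher levels in mutants at day 5, apart from Cer1, and differed in CpG content. Capitals mark letters of the searched motifs on either strand: AGATAA or TGATAA for GATA factors, TGTTTAC or TATTTAC for forkhead factors, and AACAAT or AACAAA for SOX factors.
Foxa1 at chr12:57546112-57546361, minus strand: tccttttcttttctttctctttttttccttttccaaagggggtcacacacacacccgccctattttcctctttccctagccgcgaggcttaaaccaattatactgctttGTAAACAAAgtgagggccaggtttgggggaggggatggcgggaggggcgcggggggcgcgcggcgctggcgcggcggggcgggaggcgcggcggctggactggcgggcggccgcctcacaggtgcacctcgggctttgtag
Foxa2 at chr2:148046970-148047219, minus strand: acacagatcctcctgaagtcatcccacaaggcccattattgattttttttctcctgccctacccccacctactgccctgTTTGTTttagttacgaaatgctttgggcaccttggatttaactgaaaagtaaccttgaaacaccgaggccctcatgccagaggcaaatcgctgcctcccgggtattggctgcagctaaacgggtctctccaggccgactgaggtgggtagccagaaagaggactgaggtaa
Hnf4a at chr2:163506607-163506856, plus strand: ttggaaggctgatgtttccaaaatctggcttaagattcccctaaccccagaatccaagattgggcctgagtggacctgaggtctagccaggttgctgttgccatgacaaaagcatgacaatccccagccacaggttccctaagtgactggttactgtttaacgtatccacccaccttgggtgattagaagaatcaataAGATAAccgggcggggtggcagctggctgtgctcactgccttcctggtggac
Hhex at chr19:37434591-37434840, plus strand: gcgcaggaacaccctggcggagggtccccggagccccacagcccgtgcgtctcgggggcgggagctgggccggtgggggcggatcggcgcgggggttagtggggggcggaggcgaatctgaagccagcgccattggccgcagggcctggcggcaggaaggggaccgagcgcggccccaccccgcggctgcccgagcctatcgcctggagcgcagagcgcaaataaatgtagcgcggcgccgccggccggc
Cer1 at chr4:82885152-82885401, minus strand: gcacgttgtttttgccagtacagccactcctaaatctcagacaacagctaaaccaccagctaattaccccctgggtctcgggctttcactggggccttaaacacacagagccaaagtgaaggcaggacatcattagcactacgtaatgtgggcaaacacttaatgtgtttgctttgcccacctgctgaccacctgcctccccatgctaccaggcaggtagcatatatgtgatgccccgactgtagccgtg

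The Foxa1 window had 21 CpG dinucleotides and an observed over expected CpG ratio of 0.887, above that of 87.5% of the 32851 windows of the table. The Hhex window had 32 CpGs and a ratio of 0.906, above 88.7% of windows. In the first Foxa2 window the ratio was 0.376 and above 50.1% of windows, and it was 0.732 and 0.730 in the other Foxa2 windows. Hnf4a had 3 CpGs and a ratio of 0.183, above 27.3% of windows, and Cer1 a ratio of 0.309, above 43.6%. The median over all windows was 0.373, so that Foxa1 and Hhex were CpG-rich and Hnf4a CpG-poor beside it. A relation of CpG content to the levels was not tested. A forkhead motif was in the Foxa1 window, overlapping a SOX motif, where 5.76% of all windows held a forkhead motif. A SOX motif was also in the Foxa2 window shown (24.9% of all windows), and a GATA motif in that of Hnf4a (16.6% of all windows). These matches describe letters and were not tested for binding.

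At day 5, each mutant library was set against the same E14 library, so the 3 comparisons share it and are given side by side. In Suz12GT cells 8 of the 9 genes were at least 2-fold higher and 0 lower, where 16.8% of the 20840 genes compared were higher and 4.40% lower. Suz12delta cells likewise had 8 higher and 0 lower, where 26.6% of all genes were higher and 9.52% lower, and Eednull cells had 8 higher and 0 lower, where 21.6% were higher and 11.3% lower. The gene outside these counts was Cer1 in each case. The median log2 ratio over all 9, with no minimum, was 1.96, 2.98 and 3.0 in Suz12GT, Suz12delta and Eednull cells, beside 0.13, 0.26 and 0.08 over all genes compared.

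These counts have to be read with the low starting level of the genes. Of the 8 that were compared, 4 (Sox17, Sox7, Gata4 and Hnf4a) passed the minimum only through the mutant library and could not have come out lower. Among all genes under 1 FPKM in the E14 day 5 library, 40.5% were higher in Suz12GT, 56.5% in Suz12delta and 49.5% in Eednull cells, and all 7 of the genes described here that were compared and in that range were among them in each comparison. With a pseudocount of 1 the count in Suz12GT cells was 4 in place of 8 (4.95% of all genes). It was 7 in both Suz12delta (11.7%) and Eednull cells (9.11%). Suz12GT cells, the mutant on the background of E14, had lower levels than both other mutants for Gata6, Foxa1, Hnf4a and Hhex, a nearly equal level for Foxa2, and a higher level for Sox17.

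**Figure D2:**
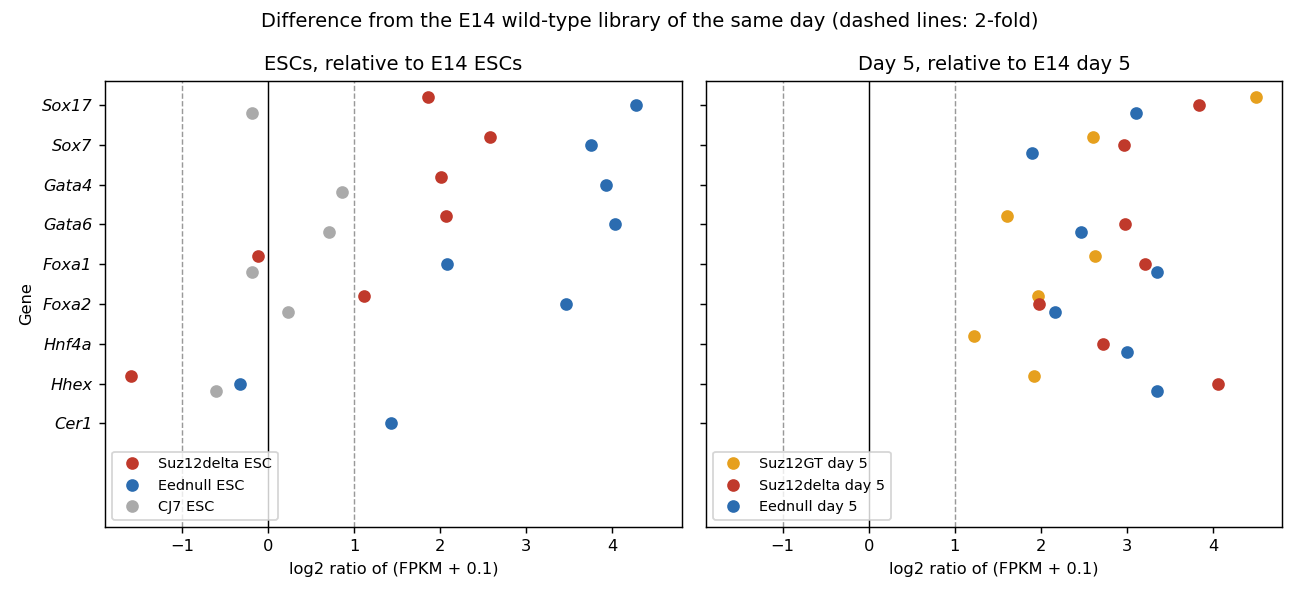
Points show log2 ratios of FPKM plus 0.1 (horizontal axis) of each gene (vertical axis) to the E14 library of the same day, for ESCs at left and day 5 at right, 1 library each, with the 2-fold limits dashed and ratios left out where a library was listed at 0 or a gene was under the minimum. At day 5 the points lie between 1.22 and 4.50, and in ESCs the Eednull points lie above the Suz12delta points for every gene with both.

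In ESCs the lines differed more. In Eednull ESCs 8 of the 9 genes were at least 2-fold higher than in E14 and 0 lower, where 22.4% of all genes compared were higher and 11.9% lower. The gene outside was Hhex, the median of the 9 was 3.46, and the median of all genes was 0.04. Suz12delta ESCs had 6 higher and 1 lower, which was Hhex, where 18.0% of all genes were higher and 22.8% lower, with a median of 1.11 over the 9 genes and -0.28 over all genes. Of the genes under 1 FPKM in E14 ESCs, all 8 described here that were compared were higher in Eednull cells (49.7% of all such genes) and 6 of 7 in Suz12delta cells (38.2%). In Suz12delta ESCs 2 of the 9 passed the minimum only through the mutant library, and in Eednull ESCs 3 did. Hnf4a is in both counts against its listed 0 in E14 ESCs. With a pseudocount of 1 the counts were 1 in Suz12delta (7.54% of all genes) and 5 in Eednull ESCs (3.97%).

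A second wild-type line gave 1 comparison without a PRC2 mutation, between the 129/S and 129/Ola backgrounds. It does not measure differences due to the C57/BL6 background of Suz12delta or the BALB/cR1 background of Eednull cells. CJ7 ESCs had 1 of the 9 genes higher than E14 ESCs, Hnf4a with its listed 0 in E14, and 0 lower, where 15.7% of all genes were higher and 14.7% lower. The largest ratio among the other genes compared was 0.86, for Gata4. The CJ7 label names a batch partner that, by its column name, was the Eednull ESC library. Set against CJ7, Eednull ESCs again had 8 of the 9 genes higher (20.5% of all genes), with a median of 3.07. Suz12delta ESCs had 4 higher than CJ7 (21.1% of all genes), which were Sox17, Sox7, Gata4 and Gata6, with a median of 0.88.

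The scaling of the ESC libraries bears on these counts. The FPKM total of a library was 797748 for E14, 718852 for CJ7, 389165 for Suz12delta and 563239 for Eednull ESCs. In Suz12delta ESCs the genes higher than in E14 made up 44.1% of all genes past 2-fold as deposited, 62.7% with a common 75th percentile and 84.2% with equal FPKM sums, and the median of all genes moved from -0.28 to 0.07 and 0.73. In Eednull ESCs these shares were 65.3%, 71.4% and 81.4%, and the median of all genes moved from 0.04 to 0.20 and 0.55. The 6 and 8 higher counts of the endoderm genes were the same under all of these scalings.

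Between ESCs and day 5 the direction depended on the line. In E14 cells 3 of the 9 genes were higher at day 5, Gata6, Foxa1 and Foxa2, and 2 were lower, Gata4 and Hhex, where 18.3% of all genes were higher and 25.8% lower. Foxa2 had a ratio of 3.63 and Hhex of -3.37, and Gata4 was at its listed 0 at day 5. With equal FPKM sums, genes higher at day 5 made up 63.9% of all genes past 2-fold in place of 41.5%, and the median of all genes was 0.50 in place of -0.20. In Suz12delta cells 7 of the 9 were higher and 0 lower (26.9% and 12.6% of all genes). Foxa1 and Foxa2 had ratios of 4.59 and 4.50 there, and the median of the 9 was 2.28, where that of all genes was 0.43. With a common 75th percentile, genes higher at day 5 made up 50.7% of all genes past 2-fold in place of 68.1%, with a median of all genes of 0.06, and the count for the endoderm genes was 7 there too.

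In Eednull cells, by contrast, 2 of the 9 genes were higher at day 5 and 3 lower, where 18.4% of all genes were higher and 24.8% lower. Foxa1 and Foxa2 were the higher genes, with ratios of 2.52 and 2.33. Sox17, Sox7 and Cer1 were lower, with ratios of -1.74 and -1.51 for the SOX genes and a listed 0 at day 5 for Cer1. Gata4 and Gata6 had ratios of 0.09 and -0.07, so that the levels of 11.4 and 4.27 FPKM in Eednull ESCs were near those at day 5. The median over the 9 was 0.09, beside -0.08 over all genes, and with equal FPKM sums the higher share of all genes past 2-fold was 57.1% in place of 42.5%. The CJ7 label names a batch partner that, by its column name, was the Eednull ESC library. The part of batch in this change was not tested.

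**Figure D3:**
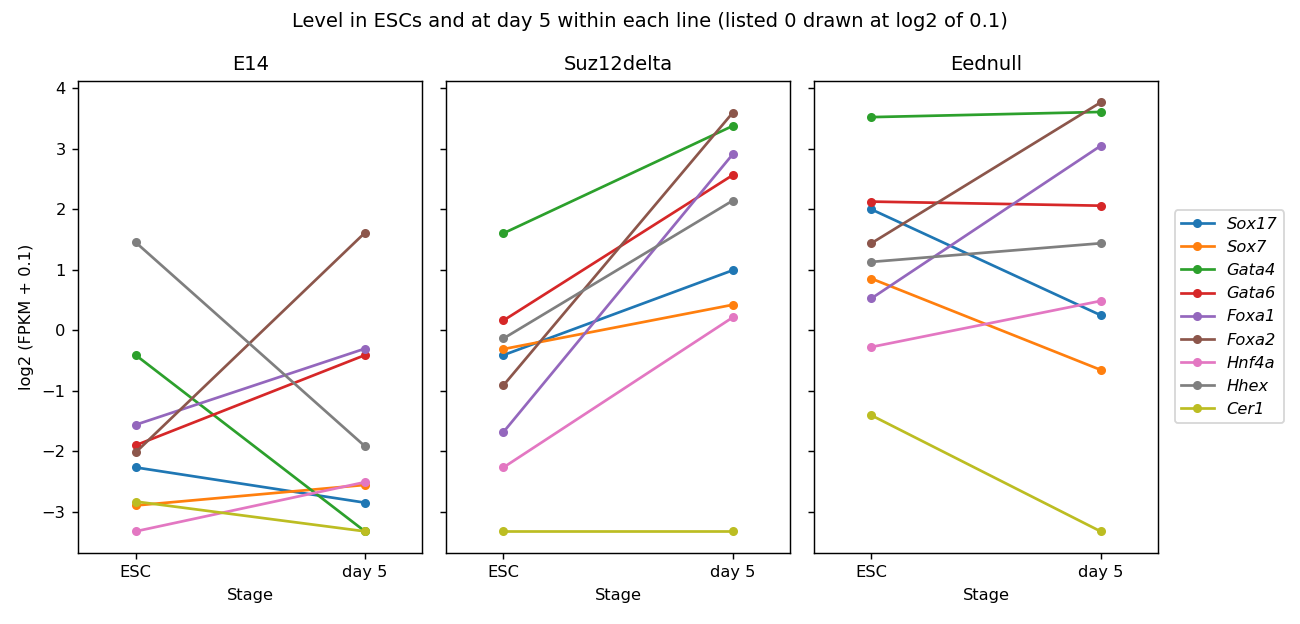
Lines join the log2 level (FPKM plus 0.1, vertical axis) of each gene in ESCs and at day 5 (horizontal axis) within E14, Suz12delta and Eednull cells, 1 library per point, with a listed 0 drawn at log2 of 0.1. Foxa1 and Foxa2 slope upward in all 3 lines, whereas Sox17 and Sox7 slope upward in Suz12delta and downward in Eednull cells.

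Since several of the 9 genes mark more than one tissue, gene lists for those tissues were read beside them. At day 5 the primitive and parietal endoderm list, largely basement membrane genes, had 11 of 13 genes higher and 0 lower than E14 in each mutant, with medians of 2.72 in Suz12GT, 2.50 in Suz12delta and 2.93 in Eednull cells. Over all genes compared, 16.8%, 26.6% and 21.6% were higher in these mutants, and 4.40%, 9.52% and 11.3% lower. Lamb1, a laminin chain, was at 1.52 FPKM in E14 and at 55.4, 50.5 and 54.1 FPKM in these mutants. Sparc, a matrix glycoprotein of parietal endoderm, was at 18.8 FPKM in E14 and at 181, 173 and 144 FPKM. Both genes are also made by fibroblasts and many other cells.

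The visceral endoderm list had 16 genes, mostly of apolipoproteins and other secreted or uptake proteins. At day 5, 13 of 15 compared were higher in Suz12GT, 15 of 16 in Suz12delta and 14 of 15 in Eednull cells, and 0 lower in each. Its medians were 1.35, 4.23 and 3.18, so that Suz12GT cells had smaller ratios than the other mutants. Apoe, an apolipoprotein, was at 4.55 FPKM in E14, 7.66 FPKM in Suz12GT, 35.2 FPKM in Suz12delta and 34.0 FPKM in Eednull cells. Rbp4, the retinol carrier, was at 0.538 FPKM in E14 and at 12.0, 10.7 and 8.06 FPKM in the mutants, and thus did not follow that order. Afp, a yolk sac and liver product picked after its values were seen, was listed at 0 in E14 and was at 0.155, 7.15 and 2.72 FPKM.

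The floor plate list differed between mutants with similar Foxa2. In Suz12GT cells 9 of its 13 genes were higher than in E14 at day 5 and 0 lower, with a median of 1.58. In Suz12delta cells 4 were higher and 8 lower, with a median of -1.27, and in Eednull cells 5 were higher and 7 lower, with a median of -1.66. Over all genes compared, 16.8%, 26.6% and 21.6% were higher and 4.40%, 9.52% and 11.3% lower in Suz12GT, Suz12delta and Eednull cells. All 7 SMN lineage markers were also lower than in E14 in both Suz12delta and Eednull cells. Whether the lower floor plate genes belong to that wider difference was not tested. Spon1, a secreted floor plate protein, was at 6.26 FPKM in E14, 27.9 FPKM in Suz12GT, 2.54 FPKM in Suz12delta and 4.94 FPKM in Eednull cells. Ntn1, the axon guidance cue netrin, was at 23.5 FPKM in E14, 57.0 FPKM in Suz12GT, 5.34 FPKM in Suz12delta and 7.39 FPKM in Eednull cells. Sulf1, a sulfatase that edits heparan sulfate, did not follow this split, at 1.92 FPKM in E14 and 13.8, 9.38 and 9.04 FPKM in the mutants. Nor did Shh, the ligand made by floor plate and picked after its values were seen, at 1.71 FPKM in E14 and 10.4, 9.06 and 8.84 FPKM in the mutants.

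**Figure D4:**
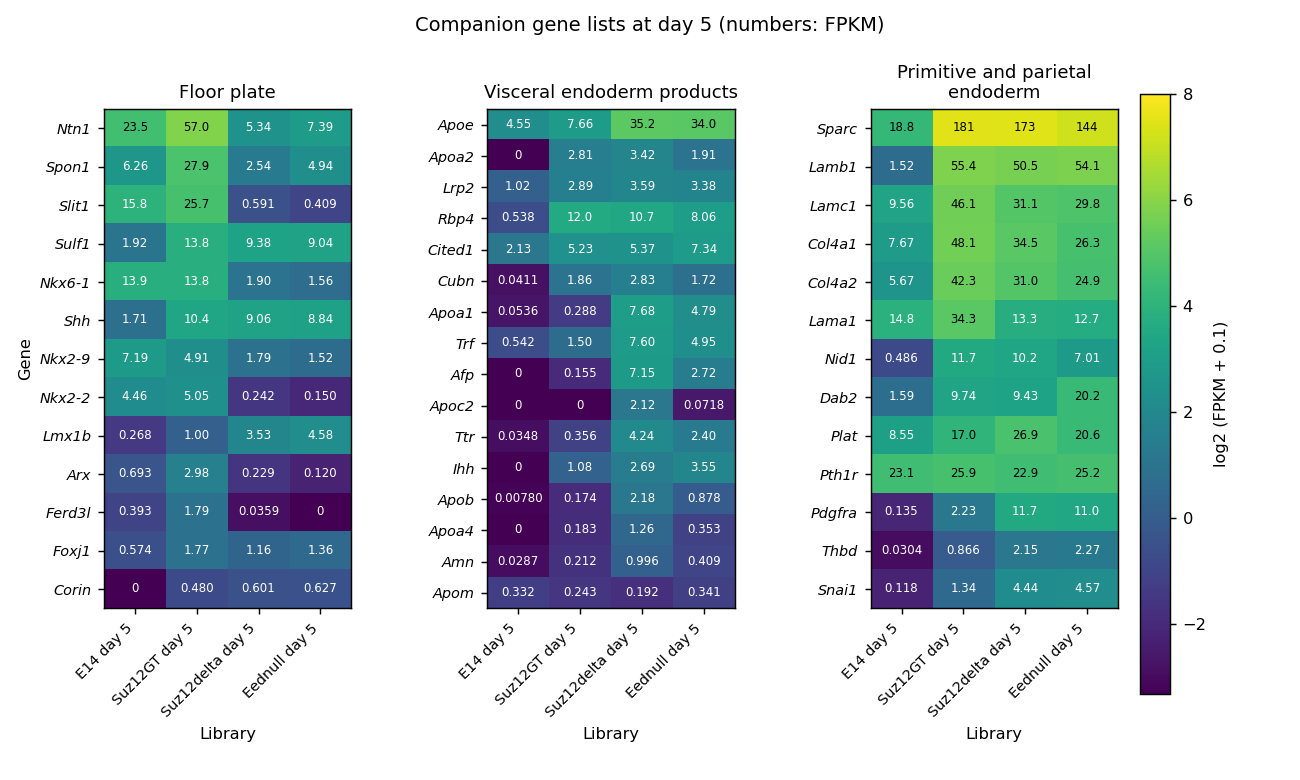
Colours show log2 of FPKM plus 0.1 and printed numbers FPKM at day 5, for genes (rows) of the floor plate, visceral endoderm and primitive and parietal endoderm lists in the 4 libraries (columns), 1 library per condition. Ntn1 and Spon1 were higher in Suz12GT than in the other libraries, and Apoe was between 34.0 and 35.2 FPKM in Suz12delta and Eednull cells against 7.66 FPKM in Suz12GT cells, while Sulf1 and Rbp4 were above E14 in all 3 mutants.

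Other regulators of endoderm varied by gene. Of 16 such genes, 10 were compared in Suz12GT cells at day 5, and 3 were higher and 1 lower than in E14. In each of Suz12delta and Eednull cells 14 were compared, and 8 were higher and 3 lower. Only 4 of the 16 reached 1 FPKM in E14 cells at day 5. Among all genes under 1 FPKM there, 40.5% were higher in Suz12GT, 56.5% in Suz12delta and 49.5% in Eednull cells. The counts of this list were thus not clearly above those shares. The medians of the list were 0.20, 2.03 and 1.29 in Suz12GT, Suz12delta and Eednull cells. Onecut1 and Prox1, which act in liver and also in neurons, were lower in Suz12delta and Eednull cells: Onecut1 was at 10.1 FPKM in E14 and at 1.15 and 2.22 FPKM in these mutants, and Prox1 at 7.38, 2.16 and 1.77 FPKM. High activity of the Nodal pathway directs definitive endoderm. Of its genes, 5 of 13 were higher in Suz12GT, 4 of 13 in Suz12delta and 1 of 11 compared in Eednull cells at day 5. The numbers lower were 0, 0 and 1, and the medians 0.27, 0.68 and 0.05. Over all genes compared, 16.8%, 26.6% and 21.6% were higher and 4.40%, 9.52% and 11.3% lower. Lefty1, a Nodal target and antagonist, was at 0.152 FPKM in E14 and at 0.723, 1.14 and 0.314 FPKM in the mutants, whereas it was between 47.1 and 193 FPKM in the ESC libraries.

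In ESCs the primitive and parietal list was higher in both mutants, in 12 of 13 genes in Suz12delta and 9 of 13 in Eednull cells against E14, with 0 lower and medians of 1.78 and 1.73. Of all genes compared, 18.0% were higher in Suz12delta and 22.4% in Eednull ESCs, and 22.8% and 11.9% lower. The visceral list had 6 of 12 genes compared higher and 2 lower in Suz12delta, and 11 of 13 higher and 0 lower in Eednull ESCs. Apoa2, an apolipoprotein, was listed at 0 in E14 and CJ7 ESCs and was at 8.74 FPKM in Suz12delta and 14.8 FPKM in Eednull ESCs. Apoe, by contrast, was at 201 FPKM in E14, 89.1 FPKM in CJ7, 57.9 FPKM in Suz12delta and 146 FPKM in Eednull ESCs. The sum of the visceral list was 219, 98.2, 93.5 and 196 FPKM in these libraries. The Nodal pathway was lower in Suz12delta ESCs for 7 of 13 genes and higher for 1, with a median of -1.32, and had 0 higher and 0 lower in Eednull ESCs. Nodal itself, picked after its values were seen, was at 16.5 FPKM in E14, 9.21 FPKM in CJ7, 3.74 FPKM in Suz12delta and 11.0 FPKM in Eednull ESCs.

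Fibroblast markers moved with the mutants too. The list of 12 (Col1a1, Col1a2, Col3a1, Thy1, Fap, Twist1, Prrx1, Postn, Lum, Dcn, Pdgfrb and S100a4) summed to 115 FPKM in E14, 126 FPKM in CJ7, 832 FPKM in Suz12delta and 302 FPKM in Eednull ESCs. In Suz12delta ESCs 11 of the 12 were higher than in E14, with a median of 2.54, and in Eednull ESCs 3 were, with a median of 0.81. Over all genes compared, 18.0% and 22.4% were higher. At day 5 the sum was 2.26 FPKM in E14, 18.9 FPKM in Suz12GT, 113 FPKM in Suz12delta and 59.9 FPKM in Eednull cells. Of the genes compared, 10 of 11, 12 of 12 and 12 of 12 were higher than in E14 in these mutants. S100a4, Prrx1, Fap and Lum were listed at 0 in E14 cells at day 5, and Fap also in Suz12GT cells. In ESCs the sum of the 9 endoderm genes was 28.3 FPKM in Eednull and 6.88 FPKM in Suz12delta cells, the reverse of the order of the fibroblast sums. At day 5 both sums ran in the same order, with E14 lowest, then Suz12GT, Eednull and Suz12delta, and the endoderm sums of the last pair were 43.5 and 44.0 FPKM. The part of fibroblast RNA in the levels of the 9 genes was not tested.

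Lists for heart and for endothelium and blood, other tissues that express some of these genes, were also higher in the mutants. In E14 cells at day 5, 0 genes of either list reached 1 FPKM. In that range 40.5% of all genes were higher in Suz12GT, 56.5% in Suz12delta and 49.5% in Eednull cells. Of the heart genes compared at day 5, 6 of 7, 11 of 11 and 10 of 11 were higher in these mutants, and 1, 0 and 0 lower. The summed level of the 11 heart genes was 1.04 FPKM in E14 and 7.25, 18.1 and 10.2 FPKM in the mutants. Of the endothelium and blood genes compared, 7 of 10, 11 of 11 and 11 of 11 were higher and 0 lower. The sum of all 11 was 0.967 FPKM in E14 and 11.9, 31.6 and 26.5 FPKM in the mutants. Kdr, the VEGF receptor of endothelial precursors, was at 0.235 FPKM in E14, 0.897 FPKM in Suz12GT, 8.45 FPKM in Suz12delta and 7.49 FPKM in Eednull cells. Gata2, a factor of blood and endothelium, was at 0.131 FPKM in E14 and at 0.591, 11.7 and 12.0 FPKM. Runx1, of the same list, did not follow that order, at 0.199 FPKM in E14 and 7.05, 1.07 and 0.757 FPKM in the mutants. The part of these tissues in the levels of Gata4, Gata6, Sox17, Sox7 and Hhex was not tested.

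The genes whose levels were most like each of the 9 were found by Pearson correlation of log2 levels over the 8 libraries, among the 18538 genes that reached 1 FPKM anywhere. This is a description, since the 8 points share 2 stages and 5 lines. Sox17 and Sox7 were among each other's 3 most like genes, with an r of 0.961, and the first of each 3 was Dcbld2 for Sox17 (0.986), Sec22b for Sox7 (0.977) and Fxyd3 for Gata6 (0.955). Hkdc1, a hexokinase family member, was among the 3 for both Sox17 (0.954) and Gata6 (0.947). Apoa2 was among those of Sox7 (0.962), and Smad2, an effector of Nodal signals, among those of Gata6 (0.952), although Smad2 varied only from 17.7 to 29.0 FPKM.

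Foxa2 was most like Rnf103 (0.991), Prdm6 (0.986) and Bmi1 (0.979), the last of which encodes a subunit of Polycomb Repressive Complex 1. Bmi1 was at 3.34 FPKM in E14, 4.16 FPKM in CJ7, 7.35 FPKM in Suz12delta and 10.5 FPKM in Eednull ESCs. At day 5 Bmi1 was at 17.3 FPKM in E14, 24.7 FPKM in Suz12GT, 34.2 FPKM in Suz12delta and 37 FPKM in Eednull cells. Foxa1 was most like Cbln2 (0.986), St3gal2 (0.979) and Leprel1 (0.977), and Gata4 was most like Cthrc1 (0.970), Fam38b (0.966) and Slc5a5 (0.963). Hnf4a was most like Wt1 (0.960), a zinc-finger factor of kidney and mesothelium, which was at 28.8 and 36.3 FPKM in Suz12delta and Eednull cells at day 5 and at 1.38 FPKM in Suz12GT cells. The others for Hnf4a were Tshr and Tmem56 (both 0.959). Hhex was most like Kif16b (0.984), Cc2d1b (0.974) and Col13a1 (0.973). For Cer1, which stayed under 1 FPKM throughout, the most like genes were Gm17436 (0.968), Ube2k (0.967) and Olfr101 (0.965), each with its highest level in the Eednull ESC library.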

How the data were processed

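Per the labels and the study's methods, the authors aligned RNA-seq reads with TopHat 1.3.2 and Bowtie 0.12.7 to NCBI build 37 and estimated expression with Cufflinks 1.2.1 and Cuffdiff, versions as in the submitters' processing notes. They deposited FPKM values per gene, which hold no read counts. Among low values, at most 1.06% of genes shared the commonest ratio between libraries, so relative depth could not be recovered, and counting error is unknown. The deposited table's 8 columns were matched to samples by name, and 0 columns were left without a sample.

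From these FPKM values, log2 ratios were taken after adding 0.1 FPKM, for every gene that reached 0.1 FPKM in either library of a pair, without rescaling. With 1 library per condition, no test or p-value could be given. The 2-fold calls were tested on simulated data. That was a check of the code, with 4-fold changes given to genes at 1 FPKM or more. It cannot show how reliable calls are for genes at lower levels, as most of the endoderm genes were in E14 cells.

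The genes named were the 9 endoderm genes, for each the 3 genes with the highest Pearson correlation over the 8 libraries, and from each of 10 companion lists up to 4 genes with the largest value in any library. Exceptions are stated where they occur. Not every gene of these sets is named in the text, and 1 is not reported here. The 9 genes and the lists were chosen with earlier results of these data known, so no count is independent support. Where a symbol had more than 1 identifier (Dab2), the one with the highest value was used. Coordinates are those of the table, counted from 1, with strands from GENCODE vM1, which held 36104 of the 36808 identifiers and the same span for 24717. Promoter letters came from RefSeq and were trimmed to the 250 bases before each start. The study's ChIP and DNA methylation data were not used here.

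As alternatives, the pseudocount was set to 1 or 0.01, the minimum raised to 1 FPKM or dropped, and other settings were genes above 0 in both libraries, a common 75th percentile over 17842 genes, CJ7 as the wild-type ESC, 4-fold calls and, chosen after seeing the data, equal FPKM sums of 1000000. Scripts ran in Python 3.11.15 with pandas 2.3.3, NumPy 2.4.6 and matplotlib 3.10.9.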

Additional observations from a re-analysis of the deposited data

Results flagged for a closer look

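Changes between ESCs and day 5 were at least 2-fold in opposite directions in 2 lines for 3 of the 9 genes. Each line had 1 library per stage, so none of these differences was tested.

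Sox17 was lower at day 5 in Eednull cells, with a log2 ratio of -1.74, and higher in Suz12delta cells, with 1.41, a difference of -3.15. Gata4 was higher at day 5 in Suz12delta cells, with 1.77, and lower in E14 cells, with -2.91, a difference of 4.69. The E14 value rests on a listed 0 at day 5 and so depends on the pseudocount of 0.1. Hhex was higher at day 5 in Suz12delta cells, with 2.28, and lower in E14 cells, with -3.37, a difference of 5.65. Suz12delta and E14 cells differ in background as well as genotype, and the 2 cannot be told apart here.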

How the results depend on the processing

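No paired analysis was possible because each condition had 1 library, and for the same reason no library could be left out in turn. Of 213 counts and medians of the 9 genes recomputed under the alternatives, 173 stayed within 1.5 times of the reported value and 40 did not, and of 393 ratios of single genes 308 stayed within that range. No ratio past 2-fold changed sign. Ratios near 0 did so in 6 cases: Foxa1 in Suz12delta ESCs was -0.12 as deposited and 0.14, 0.06 and 0.69 with a common 75th percentile, against CJ7 and with equal FPKM sums, Hhex in Eednull ESCs was -0.32 and then 0.28 against CJ7 and 0.17 with equal sums, and Gata6 between stages in Eednull cells was -0.07 and then 0.41 with equal sums.

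With a pseudocount of 1, the number of genes higher than in E14 was 4 in Suz12GT cells at day 5. In ESCs it was 1 in Suz12delta, 5 in Eednull and 0 in CJ7 cells. Over all genes compared the shares higher were 4.95%, 7.54%, 3.97% and 2.10%, in the same order. The medians were 1.32, 1.88 and 1.62 in Suz12GT, Suz12delta and Eednull cells at day 5, and 0.45 and 1.39 in Suz12delta and Eednull ESCs. Between ESCs and day 5 a pseudocount of 1 gave 1 higher and 1 lower in E14 cells (9.74% and 13.0% of all genes). It gave a median of 1.54 in Suz12delta and 1 lower in Eednull cells (7.75% of all genes). With a pseudocount of 0.01 the medians were 3.80 and 3.70 in Suz12delta and Eednull cells at day 5, and 2.32 and 4.11 in their ESCs.

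With a minimum of 1 FPKM, 5 of 5 genes were higher in Suz12GT cells at day 5 (11.2% of all genes). In ESCs 2 of 3 were in Suz12delta (13.8%) and 0 of 2 in CJ7 (5.11%). Between stages in E14 cells 1 was higher (16.6%) and 1 lower (21.6%). With 4-fold calls, 4 were higher in Suz12GT cells at day 5 (5.08%). In ESCs 3 were higher (6.94%) and 0 lower (5.08%) in Suz12delta, and 0 higher in CJ7 (5.06%). Between stages 1 was higher in E14 (7.72%) and 0 lower in Eednull cells (8.91%). Over genes above 0 in both libraries, 0 were higher in CJ7 ESCs (6.69%). Between stages in E14 cells 1 was lower there (21.3%), with a median of 1.26.

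Against CJ7, 0 genes were lower in Suz12delta ESCs (24.0% of all genes). With a common 75th percentile, 2 were higher in CJ7 than in E14 ESCs (18.2%), and the median between stages in E14 cells was 1.35. With equal FPKM sums, chosen after seeing the data, 2 were higher in CJ7 ESCs (18.8%) and 0 lower in Suz12delta ESCs (7.66%). The medians were then 2.51 and 4.06 in Suz12delta and Eednull ESCs, 3.71 in Eednull cells at day 5 and 1.06 between stages in E14 cells. The cause of these shifts was not tested beyond the alternative itself. The unknown depth limits all values near the minimum, and no error can be set on any difference.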
